A study of Mus musculus with 6 samples.

Results

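The subunits of NF-κB and a set of their inhibitors were followed in bulk RNA-seq of mouse fibroadipogenic progenitors (FAPs), the interstitial stromal cells of skeletal muscle that can become fibroblasts or adipocytes. The members are 10 genes taken by symbol from the 16895 genes of the deposited table, and each of the 10 was found there: the Rel-family subunits Nfkb1, Nfkb2, Rel, Rela and Relb, the cytoplasmic inhibitors Nfkbia and Nfkbie, the nuclear inhibitor-like genes Nfkbiz and Bcl3, and the ubiquitin-editing inhibitor Tnfaip3. All 6 libraries came from primary FAPs of C57BL/6 mice of 3 to 6 months. The study names male and female mice for cell isolation, and the sex behind each library is not given in the sources used here. The cells were sorted with magnetic beads as CD45-, CD31-, α7-integrin- and SCA-1+ cells. They were grown in medium with serum and basic fibroblast growth factor at low oxygen. The 3 control libraries are of FAPs labelled non-senescent. The 3 senescent libraries are of FAPs given etoposide, a topoisomerase inhibitor that breaks DNA, at 20 μM over 48 h, followed by 5 days without the drug. The question was which NF-κB genes differ in transcript level between senescent and control FAPs. The sources used here do not say whether replicates came from separate animals or cultures, so p-values measure only the spread between these libraries.

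NF-κB is a family of dimeric transcription factors. In resting cells inhibitors of the IκB family hold most dimers in the cytoplasm, and signals from cytokine receptors, pattern receptors or damaged DNA activate a kinase complex (IKK) that marks the IκB proteins for degradation and frees the dimers to enter the nucleus. Nfkbia and Tnfaip3 are themselves classical target genes whose products switch the pathway off again, and in senescent cells NF-κB is known for driving many secreted inflammatory factors. Its activity is set largely by protein degradation and location, which transcript levels do not measure.

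Each library held 41415072 to 59915575 reads on genes, and the members were counted from 69 reads (Bcl3 in senescent replicate 3) to 4691 reads (Nfkb1 in senescent replicate 2) per library. Values are CPM (reads on a gene relative to the sequenced depth of its library) scaled by the authors in edgeR. The labels were checked first. Of the 2 cyclin-dependent kinase inhibitor genes used as marks of senescence, 1 rose. Cdkn1a, the p53 target that arrests the cycle, was at 290 ± 40.5 CPM in control and 1038 ± 21.4 CPM in senescent FAPs (SD, n = 3). Cdkn2a, the gene of p16, was at 71.2, 56.5 and 129 CPM in control and 63.2, 102 and 104 CPM in senescent replicates, with overlapping groups and no call (log2 fold change 0.13, limma adjusted p = 0.765). That value counts the whole gene, and p16 transcripts were not measured apart. By quantitative PCR the authors reported higher p16 in etoposide-treated than in control FAPs. The cycling marker Mki67 was at 158 ± 78.6 and 12.7 ± 5.49 CPM (SD, n = 3). All 8 FAP markers were present, with summed levels of 16955 to 35595 CPM in control and 9930 to 14254 CPM in senescent libraries. Most of that sum was the collagen genes Col1a1 and Col3a1. By gene, 4 of the 8 were higher (Ly6a, Cd34, Dcn and Lum) and 1 was lower (Col1a1). Of 12 leukocyte markers 8 were in the table, with sums of 11.7 to 14.2 CPM in control and 27.1 to 33.3 CPM in senescent libraries, and 4 of the 5 tested were higher. Endothelial markers (4 of 5 in the table) summed to 18.0 to 38.4 and 22.2 to 29.2 CPM, and myogenic markers (2 of 5) to 14.3 to 19.3 and 23.4 to 30.2 CPM. Of the FAP and leukocyte markers called higher, Lum and Itgam passed the low-value filter (0.5 CPM in 3 libraries) only through the senescent libraries. Over all genes tested 21.8% were called higher and 24.3% lower. In bulk RNA fewer cells of a type and less RNA per cell cannot be told apart.

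Several members are known to be regulated by NF-κB itself, so the stretches just upstream of their starts are shown where they hold the 10-base κB consensus. RefSeq windows of 250 bases before each start (build GRCm38.p6) were matched by symbol for 7 of the 10 members (not Nfkb1, Relb and Nfkbiz), and 5 of these 7 held the consensus on either strand, against 8.23% of 27025 genes with windows. No match was found in the windows of Rela and Bcl3. The stretches below each have 30 bases, are written 5′ to 3′ on the gene's own strand, and carry the bases of the consensus match, on either strand, in capitals. They lie at chr12:55492657-55492686 (minus strand) for Nfkbia, chr10:19015516-19015545 and chr10:19015411-19015440 (minus) for Tnfaip3, chr11:23771042-23771071 (minus) for Rel, chr17:45555584-45555613 (plus) for Nfkbie and chr19:46304688-46304717 (plus) for Nfkb2.
Nfkbia: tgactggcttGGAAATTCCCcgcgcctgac
Tnfaip3, far stretch: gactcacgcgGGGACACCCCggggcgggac
Tnfaip3, near stretch: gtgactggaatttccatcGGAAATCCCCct
Rel: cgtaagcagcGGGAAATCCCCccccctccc
Nfkbie: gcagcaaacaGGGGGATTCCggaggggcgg
Nfkb2: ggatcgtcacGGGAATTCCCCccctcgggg

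The match in Nfkbia ended 20 bases before the start, and those in Tnfaip3 116 and 3 bases before it. In Rel it ended 82, in Nfkbie 97 and in Nfkb2 29 bases before the start. In Rel, Nfkb2 and the far Tnfaip3 stretch, matches on both strands overlap each other. Nfkb2 had 3 annotated starts and 3 further matched stretches that are not shown, from 11 to 2 bases before the same start, from 236 to 227 before the second and from 225 to 216 before the third. The Nfkb2 stretch shown lies wholly inside an annotated Nfkb2 exon of GENCODE M21, whereas the other 5 lie outside the exons of their own gene. Exons of other genes were not checked. Both Tnfaip3 stretches lie inside the GENCODE span of that gene (chr10:19000910-19015657). A match of letters is a description and does not show that a site is bound.

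Of the 10 members, 2 were higher in senescent FAPs, the inhibitors Nfkbia and Tnfaip3, and 1 was lower, the subunit Rel (limma, Benjamini-Hochberg adjusted p under 0.05 over 14777 genes tested). The remaining 7, among them Nfkb1, Nfkb2 and Rela, did not pass the test. In the same fit 46.1% of all genes were called, 21.8% higher and 24.3% lower, beside 30% of the members. The libraries of the groups did not overlap for 5 of the 10 members, against 57.4% of all genes. The median log2 fold change of the members was 0.12 and that of all genes -0.03, and the median absolute change was 0.29 and 0.34. All 10 members had at least 1.39 CPM in every library, so each passed the low-value filter (0.5 CPM in 3 libraries) in both groups. With the replicate number as a block the members again gave 2 higher and 1 lower, with 50.9% of all genes called.

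**Figure D1:**
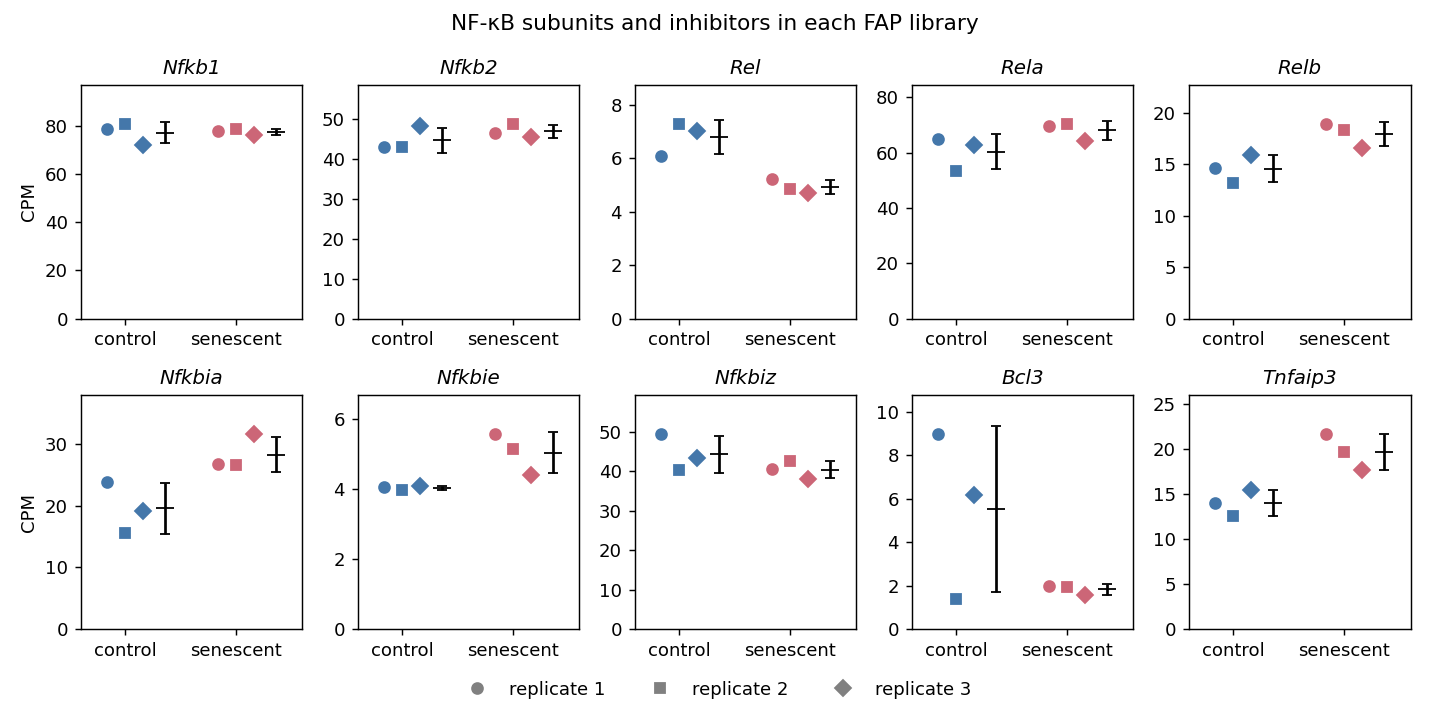
Level of each of the 10 genes in each library, in CPM on linear axes that start at 0, with control libraries in blue, senescent libraries in red and the mean ± SD of 3 libraries in black. The senescent points lie wholly above the control points for Nfkbia, Nfkbie, Relb and Tnfaip3 and wholly below them for Rel, and control replicate 2 is the low point of Bcl3 at 1.39 CPM.

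Among the subunits, Rela and Nfkb1 encode the partners of the classical dimer. Nfkb1 (chr3:135584655-135691547, GRCm38, minus strand) was at 78.6, 80.8 and 72.2 CPM in control replicates 1, 2 and 3 and at 77.8, 78.5 and 76.1 CPM in senescent replicates 1, 2 and 3. The senescent values all lie within the control range. The log2 fold change of log2(CPM + 0.5) was 0.01 (95% interval -0.16 to 0.17), so the interval allows changes from 0.90-fold to 1.13-fold. Rela (chr19:5637483-5648130, plus strand), which carries the transactivation domain, was at 65.1, 53.3 and 62.8 CPM in control and 69.8, 70.4 and 64.1 CPM in senescent replicates. The groups overlap, since control replicate 1 exceeds senescent replicate 3. The log2 fold change of Rela was 0.18 ± 0.09 (SE), with an interval of -0.04 to 0.40 and a limma adjusted p of 0.162.

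Nfkb2 and Relb encode the partners of the alternative dimer, which is released when the Nfkb2 precursor is processed. Nfkb2 (chr19:46304320-46312385, plus strand) was at 42.8, 42.8 and 48.1 CPM in control and 46.3, 48.7 and 45.5 CPM in senescent replicates. These groups overlap, and the log2 fold change was 0.07 (95% interval -0.11 to 0.26, limma adjusted p = 0.483). Exons of Nfkb2 overlap Psd on the opposite strand, itself at 1.24 and 1.69 CPM, and the sources used here do not say if reads were counted by strand. Relb (chr7:19606217-19629438, minus strand) was at 14.6, 13.2 and 15.9 CPM in control and 18.9, 18.3 and 16.6 CPM in senescent replicates. Every senescent library lies above every control library, by a narrow margin between control replicate 3 and senescent replicate 3. The log2 fold change of Relb was 0.29 ± 0.11 (SE) with a limma adjusted p of 0.0618, which misses the threshold. Relb passed it in 5 of 17 alternatives. These were edgeR's quasi-likelihood test (adjusted p = 0.0493), DESeq2 (0.024), and limma after median-of-ratios rescaling (0.0483), quantile normalization (0.0348) or division by library totals (0.00782). In limma Relb did not pass with the replicate number as a block (adjusted p = 0.0743) or with any 1 library left out (0.0669 to 0.17).

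Rel, the subunit best known from lymphocytes (chr11:23736847-23770970, minus strand), was at 6.09, 7.28 and 7.0 CPM in control and 5.22, 4.85 and 4.70 CPM in senescent replicates. All senescent libraries lie below all control libraries. Its level fell by 0.42 on the log2 scale (SE 0.13, 95% interval -0.73 to -0.12), a 0.75-fold level, with a limma adjusted p of 0.0312. The fall did not hold its call without control replicate 2 (adjusted p = 0.0602), control replicate 3 (0.097), senescent replicate 2 (0.0965) or senescent replicate 3 (0.0916). Rel also had the lowest level per length of the members.

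The cytoplasmic inhibitor Nfkbia encodes IκBα, the main inhibitor of dimers that contain Rela. Nfkbia (chr12:55489410-55492647, minus strand) was at 23.9, 15.6 and 19.2 CPM in control and 26.7, 26.6 and 31.6 CPM in senescent replicates. The groups do not overlap, and the nearest values are 23.9 CPM in control replicate 1 and 26.6 CPM in senescent replicate 2. Nfkbia rose by a log2 fold change of 0.54 ± 0.16 (SE), a 1.45-fold level (95% interval 1.12 to 1.87), with a limma adjusted p of 0.0273. The call was lost without control replicate 3 (adjusted p = 0.0702), senescent replicate 2 (0.0626) or senescent replicate 3 (0.0994), with log2 fold changes of 0.39 to 0.69 over the 6 libraries left out. Nfkbia thus showed both the largest rise and the widest control spread of any member except Bcl3, with a coefficient of variation of 21.3%.

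Nfkbie, which encodes IκBε, a slower inhibitor of Rela and Rel dimers (chr17:45555703-45563169, plus strand), was at 4.04, 3.97 and 4.07 CPM in control and 5.56, 5.15 and 4.39 CPM in senescent replicates. The senescent libraries all lie above the control libraries, with senescent replicate 3 nearest to them. The log2 fold change was 0.28 ± 0.14 (SE, 95% interval -0.04 to 0.60) and did not pass the test (limma adjusted p = 0.13).

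Nfkbiz and Bcl3 encode IκB-like proteins that act in the nucleus, where they bind dimers and can help or block transcription. Nfkbiz (chr16:55811375-55838899, minus strand) was at 49.4, 40.2 and 43.3 CPM in control and 40.6, 42.5 and 38.1 CPM in senescent replicates. The groups overlap and the log2 fold change was -0.13 (95% interval -0.35 to 0.10, limma adjusted p = 0.31). When the reads were only divided by library totals its sign turned, to 0.08.

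Bcl3 (chr7:19808462-19822770, minus strand) was the most uneven member, at 8.97, 1.39 and 6.19 CPM in control and 1.99, 1.91 and 1.55 CPM in senescent replicates. Control replicate 2 lies below every senescent library while control replicates 1 and 3 lie far above them, a 6.46-fold range within the control group. The log2 fold change was -1.09 ± 0.53 (SE, 95% interval -2.33 to 0.14) with a limma adjusted p of 0.128. Without control replicate 2 it was -1.79 with an adjusted p of 3.92e-04, and DESeq2 on all libraries gave -1.56 with an adjusted p of 0.00864. Control replicate 2 was also the library with the most Mki67, with 247 CPM, where replicates 1 and 3 of that group had 125 and 101 CPM, and the part of this difference in the Bcl3 value was not tested.

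Tnfaip3 (chr10:19000910-19015657, minus strand), whose product edits ubiquitin chains on upstream adaptors and so ends signaling to IKK, was at 14.0, 12.5 and 15.4 CPM in control and 21.6, 19.6 and 17.6 CPM in senescent replicates. Every senescent library lies above every control library. Tnfaip3 rose by a log2 fold change of 0.47 ± 0.12 (SE), a 1.39-fold level (95% interval 1.14 to 1.69), with the smallest limma adjusted p of the members, 0.0163. Without senescent replicate 1 the adjusted p was 0.0517 and without senescent replicate 2 it was 0.0596. Leaving out any of the other 4 libraries kept the call.

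Leaving out senescent replicate 2 left none of the 10 members called in either direction by limma, with Tnfaip3 at 0.47, Nfkbia at 0.58 and Rel at -0.42 on the log2 scale in that fit. The split of calls changed with the scaling of the libraries. The deposited scaling divides by an effective library size, with factors of 0.917 to 0.940 for control and 1.07 to 1.09 for senescent libraries. Dividing by plain library totals instead moved the median change of all genes from -0.03 to 0.17 and the share of calls that were higher from 47.3% to 72.3%, and then 7 members were higher and 0 lower, with Rel at -0.23 (limma adjusted p = 0.191). Taken against that median, the changes were close under both scalings, at 0.57 and 0.58 for Nfkbia, 0.51 and 0.51 for Tnfaip3, 0.33 and 0.33 for Relb, -0.39 and -0.40 for Rel and 0.04 and 0.05 for Nfkb1.

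**Figure D2:**
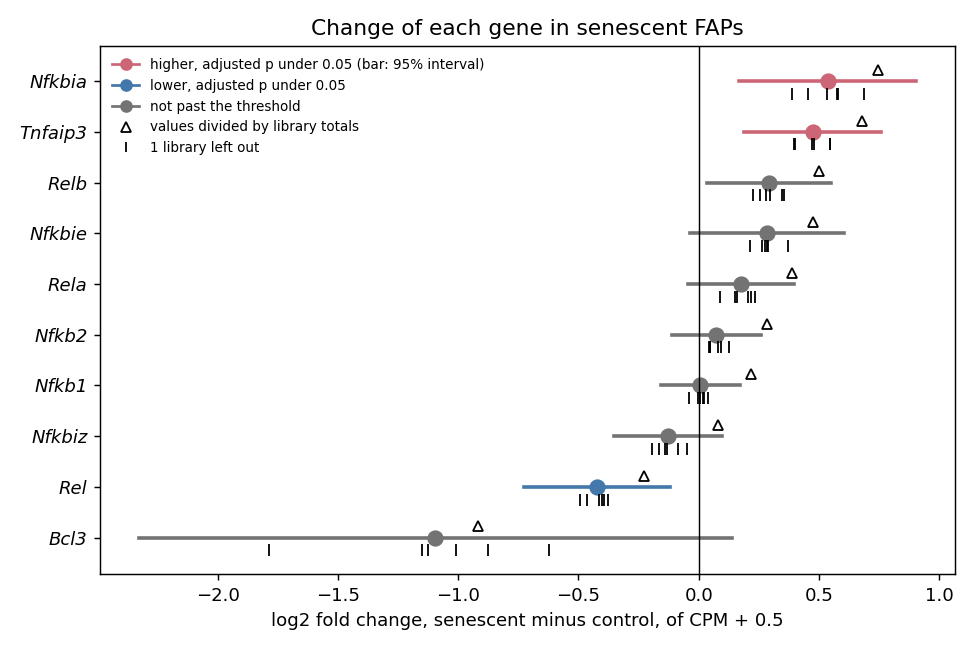
Log2 fold change of each member, senescent minus control, on the log2(CPM + 0.5) scale, with the 95% interval of the limma fit as a bar, the value after division by library totals as a triangle and the values with 1 library left out as ticks. Nfkbia at 0.54 and Tnfaip3 at 0.47 are called higher and Rel at -0.42 lower, every triangle lies to the right of its point, and the ticks of Bcl3 reach from -1.79 to -0.62.

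A ratio of 2 genes within a library does not depend on the scaling. The CPM of Nfkbia divided by that of Rela was 0.367, 0.293 and 0.306 in control and 0.382, 0.377 and 0.493 in senescent replicates. This ratio of inhibitor to subunit transcripts did not overlap between the groups, though control replicate 1 and senescent replicate 2 lie close. The ratio of Rel to Rela was 0.0936, 0.137 and 0.112 in control and 0.0748, 0.0689 and 0.0733 in senescent replicates. Here too the groups were separate, with the senescent values lower. With 3 libraries against 3 an exact permutation test of such a ratio cannot go below a p of 0.10, so none is given. Nfkbia and Rel are themselves members called in these same libraries, so the separate ratios add no independent result. The share of other gene pairs with separate ratios was not computed, and single genes were separate for 57.4% of all genes.

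Per kilobase of its principal transcript, Rela had the highest control level of the members at 22.2 ± 2.31 CPM per kb (SD, n = 3), followed by Nfkb1 at 18.7 ± 1.08, Nfkb2 at 14.2 ± 0.977, Nfkbia at 12.4 ± 2.65 and Nfkbiz at 10.8 ± 1.14 CPM per kb. Relb stood at 6.59 ± 0.617, Tnfaip3 at 3.16 ± 0.335, Bcl3 at 2.98 ± 2.07, Nfkbie at 1.65 ± 0.0209 and Rel at 0.910 ± 0.0833 CPM per kb. The control libraries of neighbours in this order overlapped for Nfkb2 and Nfkbia, Nfkbia and Nfkbiz, Tnfaip3 and Bcl3, and Bcl3 and Nfkbie. For Rela and Nfkb1 the lowest and the highest control value were both 19.6 CPM per kb after rounding. The control libraries were separate between Nfkb1 and Nfkb2, Nfkbiz and Relb, Relb and Tnfaip3, and Nfkbie and Rel. In senescent FAPs Nfkbia, at 17.9 ± 1.83 CPM per kb, stood above Nfkb2 at 14.9 ± 0.536, and Nfkbie at 2.07 ± 0.244 above Bcl3 at 0.981 ± 0.125 CPM per kb. The order depends on the length used: over all annotated exons together Nfkb1 falls to rank 5, at 6.40 CPM per kb in control.

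**Figure D3:**
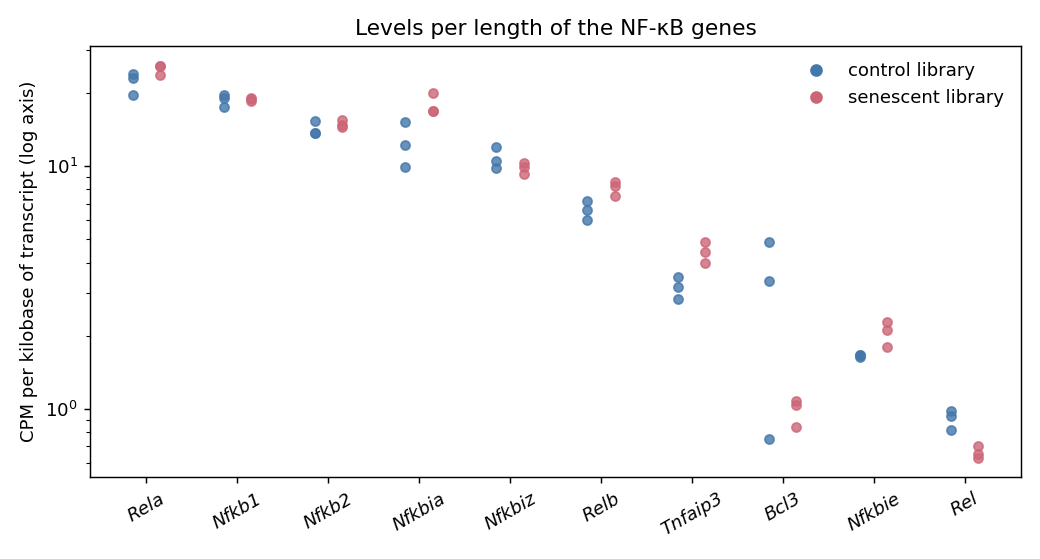
CPM per kilobase of the principal transcript for each member in each library, on a log axis, ordered by the control mean with control libraries in blue and senescent libraries in red. Rela, Nfkb1, Nfkb2, Nfkbia and Nfkbiz lie near or above 10 CPM per kb in most libraries, Rel lies below 1 in all 6, and the 3 control points of Bcl3 spread from 0.75 to 4.85.

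Within groups most members varied little. The coefficient of variation over control libraries was 1.27% for Nfkbie, 5.76% for Nfkb1 and 6.89% for Nfkb2, with 69.5% for Bcl3 at the other end, beside a median of 11.9% over all genes tested. The control libraries held only 181, 209 and 227 reads of Nfkbie, and counting alone spreads such values by more than 1.27% on average. In senescent libraries the coefficient ran from 1.55% for Nfkb1 to 12.7% for Bcl3, with a median of 9.61% over all genes. By absolute log2 fold change Nfkb1 lay at percentile 1.08 of all genes tested, Nfkbia at percentile 68.1 and Bcl3 at percentile 90.5. By library pairs of the same replicate number, Nfkbia, Tnfaip3, Rela, Relb and Nfkbie were higher in the senescent library in 3 of 3 pairs and Rel in 0 of 3. Nfkb2 was higher in 2 of 3 pairs, and Nfkb1, Nfkbiz and Bcl3 in 1 of 3. The share of all genes with 3 of 3 or 0 of 3 was not computed. It is at least the 57.4% of genes whose groups do not overlap. The 3 genes outside the members whose pattern over the 6 libraries lay nearest to that of Nfkbia were Ttc30b, Ift27 and Prrt4, with root-mean-square differences of 0.0468, 0.0586 and 0.0606 in centred log2(CPM + 0.5) among 14767 genes compared.

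The genes around the members were taken from a list of 58 regulators, of which 54 were in the table and 53 were tested: 12 were higher, 7 lower and 34 not called (35.8% called, against 46.1% of all genes). No regulator changed by more than 1 on the log2 scale. The classes of the list are rough. Of the 14 genes classed as kinases and other IκB genes, 3 rose and 0 fell. That class also holds the scaffold Ikbkg, the kinase partners Tab1, Tab2 and Tab3, and the ubiquitin ligase parts Btrc and Fbxw11. Of the 26 classed as adaptors and ubiquitin ligases, 5 rose and 4 fell, with the kinases Ripk1, Irak1 and Irak4 and the inhibitor Irak3 counted there. Of the 13 classed as negative regulators, 4 rose and 3 fell. These splits rest on the scaling too, since division by library totals gave 21 higher and 0 lower. Without senescent replicate 2 there were 6 higher and 1 lower.

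The catalytic IKK subunits, which phosphorylate the IκB proteins, gave no call. Ikbkb was at 43.0 ± 4.08 and 44.0 ± 3.30 CPM in control and senescent FAPs (SD, n = 3), and Chuk at 60.0 ± 2.64 and 59.3 ± 5.80 CPM. Their log2 fold changes had intervals of -0.19 to 0.26 and -0.23 to 0.19. By contrast Ikbkg, the scaffold that joins them, was at 39.5, 41.6 and 45 CPM in control and 78.9, 81.1 and 74.8 CPM in senescent replicates. The groups are far apart, and the log2 fold change of 0.89 ± 0.08 (SE, limma adjusted p = 2.76e-04) was the largest rise among the regulators over all 6 libraries in limma. Exons of Ikbkg overlap G6pdx on the opposite strand over 418 bases, and G6pdx was at 155 and 180 CPM (log2 fold change 0.20, limma adjusted p = 0.206).

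The IKK-related kinase Ikbke was at 15, 12.1 and 14.6 CPM in control and 23.1, 26.1 and 23.8 CPM in senescent replicates, a log2 rise of 0.79 ± 0.11 (SE, limma adjusted p = 0.00143). Map3k14, the kinase that triggers processing of the Nfkb2 precursor, was at 19.4, 15.9 and 16.4 CPM in control and 23.4, 26.8 and 25.1 CPM in senescent replicates, a rise of 0.54 ± 0.11 (SE, limma adjusted p = 0.00639). Both genes had separate groups. The further IκB genes stayed without a call: Nfkbib was at 9.62 ± 0.694 and 8.81 ± 0.527 CPM and Nfkbid, near the filter, at 0.626 ± 0.216 and 0.565 ± 0.185 CPM (SD, n = 3). Tnip1, a ubiquitin-binding partner of the Tnfaip3 product, ranged from 30.3 to 48.8 CPM in control and from 30 to 52.4 CPM in senescent libraries, with no call. Birc3, a ubiquitin ligase of the TNF receptor complex, was at 11.8 ± 2.24 and 13.6 ± 1.56 CPM, with a limma adjusted p of 0.308.

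Of the other named regulators, Irak3, a brake on Toll-like receptor signaling, was at 14.4, 7.30 and 14.6 CPM in control and 20.3, 20.5 and 23.6 CPM in senescent replicates, a log2 rise of 0.86 ± 0.25 (SE, limma adjusted p = 0.0247). Control replicate 2 is its low value, leaving out libraries moved the change between 0.55 and 1.02, and the call was lost without senescent replicate 1 (limma adjusted p = 0.0506), 2 (0.0663) or 3 (0.0885). An overlapping gene on the opposite strand, Tmbim4, also rose, from 33.1 to 61.5 CPM (limma adjusted p = 0.00354), and its part in the Irak3 value was not tested. Sqstm1, the p62 adaptor, rose by 0.81 on the log2 scale, from 343 ± 22.4 to 601 ± 62.1 CPM (SD, n = 3), and Cyld, a deubiquitinase that restrains the pathway, rose by 0.61 in log2 terms (limma adjusted p = 0.0115). The largest falls among called regulators were those of Traf5 (by 0.52 on the log2 scale), the deubiquitinase Otulin (by 0.41), Commd1, which promotes the turnover of Rela (by 0.39), the ubiquitin ligase Birc2 (by 0.29) and the ubiquitin-conjugating enzyme Ube2n (by 0.28), with limma adjusted p from 0.0078 to 0.0421. Exons of Commd1 overlap Gm28048 on the same strand, at 36.1 and 37.3 CPM, and Zrsr1 on the opposite strand, which rose from 8.02 to 10.8 CPM (limma adjusted p = 0.0284), over 706 bases in all, and their part in the Commd1 value was not tested. Leaving out senescent replicate 2 took the call from Otulin (adjusted p = 0.0799), Commd1 (0.0573), Birc2 (0.111), Ube2n (0.0753) and, among the rises, Cyld (0.0516). The call of Otulin was also lost without control replicate 1 (0.0622) or senescent replicate 3 (0.0733), that of Ube2n without control replicate 3 (0.0528) or senescent replicate 1 (0.0548), that of Cyld without senescent replicate 3 (0.0502), and that of Birc2 without any library but control replicate 2 (0.0887 to 0.126).

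Known NF-κB target genes were described beside the members. Of 54 listed, 48 were in the table and 42 were tested, of which 24 rose, 6 fell and 12 were not called (71.4% called, against 46.1% of all genes). Beyond a log2 change of 1 there were 19 called rises and 3 called falls among the 42, where 7.19% of all genes were called rises and 3.97% called falls of that size. The median change of the target genes was 0.73. Because the list was written with earlier results of these data known, its count is a description. Of the 42, 8 had a control library under 0.5 CPM and passed the filter through the senescent libraries, and all 8 rose. For such genes a rise was nearly the only change that could enter the test. The counts by class below include them. With a filter of 2 CPM there were 18 higher and 6 lower of 36 tested (66.7% called). Over all genes it gave 2421 higher and 3376 lower of 12305 tested (47.1% called). This filter has the same limit, since Il15, Mmp13, Tlr2 and Mmp3 passed it with a control library under 2 CPM.

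All 6 tested adhesion molecules and receptors rose, of which Cd40 passed the filter only through the senescent libraries. Icam1, the ligand by which leukocytes adhere, was at 2.28, 2.21 and 5.01 CPM in control and 52.5, 66.8 and 60.6 CPM in senescent replicates. The groups are far apart, with a log2 fold change of 4.12 ± 0.27 (SE), a 17.4-fold level (limma adjusted p = 1.31e-04). Of the 11 acute phase, protease and enzyme genes 7 rose and 0 fell. Among these rises, Saa3, Mmp9 and Mmp13 passed the filter only through the senescent libraries. The matrix metalloproteinase Mmp3 was at 1.38, 5.4 and 3.82 CPM in control and 32.8, 53.0 and 59.0 CPM in senescent replicates, a log2 rise of 3.70 ± 0.41 (SE, limma adjusted p = 5.62e-04). Mmp13, a collagenase, was at 0.067, 0.685 and 0.0898 CPM in control and 4.84, 6.44 and 4.93 CPM in senescent replicates. For Saa3, an acute phase protein, the reads were 3, 0 and 0 in control and 85, 106 and 147 in senescent replicates, and no fold is given against so few reads.

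The 12 tested chemokines and cytokines split, with 5 higher and 2 lower. Among the higher ones, Cxcl2, Cxcl10 and Il15 passed the filter only through the senescent libraries. Ccl2, which recruits monocytes, was at 28.1, 63.8 and 37.1 CPM in control and 205, 196 and 201 CPM in senescent replicates, a log2 rise of 2.29 ± 0.26 (SE, limma adjusted p = 5.62e-04). Its senescent values are nearly equal, while control replicate 2 is the highest control. The chemokine Cx3cl1 went the other way, at 105, 116 and 88.0 CPM in control and 53.5, 37.2 and 39.0 CPM in senescent replicates, so that it fell by 1.25 on the log2 scale (limma adjusted p = 8.68e-04). The interleukin 1 receptor antagonist gene Il1rn fell by 1.21, from 123 ± 10.6 to 53.3 ± 9.53 CPM (SD, n = 3). Chosen after their values were seen, Il6 at 27.5 ± 4.18 and 21 ± 5.91 CPM (limma adjusted p = 0.163) and Csf1 at 4123 ± 617 and 4257 ± 141 CPM (0.804) were not called. With the replicate number as a block Il6 was called lower (limma adjusted p = 0.0313), and it was lower in the senescent library in 3 of 3 pairs.

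Of the 9 survival, cycle and transcription genes 3 rose and 4 fell. Named only to complete the count, the rises were in Ccnd1, Bcl2l1 (by 0.73 on the log2 scale) and Cflar (by 0.73). The change of Ccnd1 was the largest of the class, at 2.155 on the log2 scale, from 118 ± 64.8 to 485 ± 80.7 CPM (SD, n = 3). The falls were in the transcription factor Myc (by 1.24 on the log2 scale, from 61.0 ± 8.35 to 25.8 ± 5.11 CPM), the immediate early gene Ier3 (by 0.67), the AP-1 subunit Junb (by 0.47) and, named only to complete the count, Gadd45b. The call of Junb was lost without any library but control replicate 2 (limma adjusted p 0.0567 to 0.115), while Myc and Ier3 kept theirs in all 6 such fits. Of the 4 antigen presentation genes 3 rose, of which Psmb9 passed the filter only through the senescent libraries. κB consensus matches were present in the windows of 14 of 40 target genes with windows (35.0%) and 10 of 46 regulators (21.7%), beside the 8.23% of all genes given above. Beside these rises stand the leukocyte markers: their summed level of 27.1 to 33.3 CPM in senescent libraries held Cd53 as its largest part (8.36 to 13.7 CPM), while Ptprc, Cd52, Tyrobp and Adgre1 were not among the genes of the table. Their part in the target gene values was not tested. Proliferation markers moved with the groups as well, from sums of 227 to 523 CPM in control to 21.9 to 37.6 CPM in senescent libraries, and their part was not tested either.

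**Figure D4:**
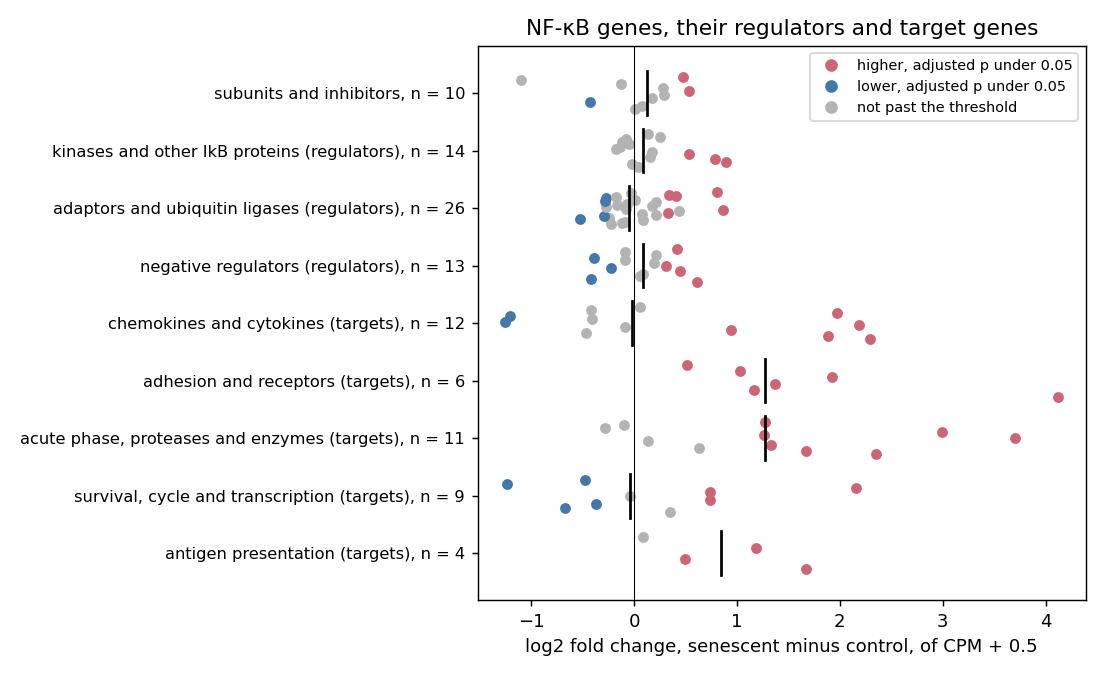
Log2 fold change (senescent minus control, log2(CPM + 0.5) scale) of every tested member, regulator and target gene by role, each point a gene, with the median of each row as a black line and red or blue marking an adjusted p under 0.05 higher or lower. The members and the regulators lie between -1.09 and 0.89. Adhesion genes and receptors, with Icam1 at 4.12, lie wholly to the right of 0, though Cd40 passed the filter only through the senescent libraries. The point of Saa3 rests on 3 control reads in all.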

How the data were processed

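Libraries of 3 control and 3 senescent FAP samples were prepared by the authors with a stranded mRNA kit and sequenced. The authors' processing notes name mm10, edgeR 3.10 and R 3.6.0, and the aligner, counter and use of strand are not given in the sources used here. The authors deposited a normalized signal, CPM of edgeR's effective library size, in 1 column per library. The plan assumed plain CPM, and the same test was kept. Every value was a whole multiple of 1 read (tolerance 0.05, 100% of values), so reads were recovered, 41415072 to 59915575 per library, 1 read being 0.0167 to 0.0225 CPM. Precision is limited by the 3 libraries per group more than by counting, except for genes with few reads. Of 16895 genes, 15973 names matched GENCODE M21, the source of coordinates, lengths and exon overlaps.

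Genes with at least 0.5 CPM in 3 libraries (14777) were tested with limma 3.58.1 in R 4.3.3 on log2(CPM + 0.5) with a variance trend, two-sided, with Benjamini-Hochberg adjustment over all genes. This scale understates changes of low genes. The tests were tried on simulated data. The members, lists and tests were chosen with earlier results of these data known. Named genes were the members, the 5 largest called rises and 5 largest called falls among regulators and among target genes, and the genes whose products bind a member. Alternatives were pseudocounts of 0.1 and 1, no filter or 2 CPM, 3 other scalings, no variance trend, a replicate block, each library left out, and edgeR 4.0.16 or DESeq2 1.42.0 on recovered reads, where edgeR's quasi-likelihood test called 3 members higher and 1 lower. Libraries with equal replicate numbers in the labels deviated together from their group means (r = 0.537, 0.308 and 0.207 across genes, which are not independent). Libraries with unequal numbers gave r from -0.357 to 0.153. Deviations from a mean of 3 libraries force such values to offset each other, so they do not settle a pairing. The main fit left the replicate number out, and the replicate block used it as an alternative. Promoter windows came from RefSeq (GRCm38.p6). No library was left out.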

Additional observations from a re-analysis of the deposited data

How the results depend on the processing

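The cause of each change below was not tested. Division by library totals gave 7 members higher and 0 lower, 21 regulators higher and 0 lower, and 5057 genes higher and 1933 lower over all genes. DESeq2 called 2 members lower, Rel and Bcl3. Regulators called lower numbered 3 with quantile normalization and 4 with edgeR's quasi-likelihood test or DESeq2, against 7. With 1 library left out, members higher ranged from 0 to 2 and lower from 0 to 1, regulators higher from 6 to 13 and lower from 1 to 8, target genes higher from 22 to 23 and lower from 4 to 8, and all genes higher from 2130 to 3406 and lower from 2416 to 3875. The lowest counts of members, regulators and all genes came without senescent replicate 2. The replicate block gave the members' calls again (2 higher, 1 lower; adjusted p 0.0149 for Nfkbia, 0.0178 for Tnfaip3 and 0.0442 for Rel), 13 regulators higher and 8 lower, and 24 target genes higher and 8 lower against 6.

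Values that turned sign were all of genes without a call. On the log2 scale division by library totals turned Nfkbiz to 0.082, Chuk to 0.189, Nfkbib to 0.082 and Nfkbid to 0.038. Chuk also turned with quantile normalization (0.063), edgeR (0.008) and DESeq2 (0.02). With 1 library left out, Nfkb1 ranged from -0.04 to 0.04, Ikbkb from -0.036 to 0.1, Chuk from -0.068 to 0.061, Nfkbid from -0.25 to 0.07 and Tnip1 from -0.15 to 0.31. Over all alternatives the adjusted p ranged from 0.0155 to 0.191 for Rel, from 0.00453 to 0.0994 for Nfkbia, from 0.00112 to 0.0596 for Tnfaip3, from 0.00782 to 0.17 for Relb and from 3.92e-04 to 0.333 for Bcl3. Bcl3 has no value under the filter of 2 CPM, which it did not pass. Intervals cover these libraries only, and transcript levels say nothing of protein level or location.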

Other observations

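Some listed target genes were too low for the test and are given as values. Csf2, the granulocyte-macrophage growth factor, had 0 reads in each of the 3 control libraries, which allows up to 3 reads in each (counting error only), and 16, 19 and 10 reads in senescent replicates 1, 2 and 3. The chemokine gene Ccl5 had 0, 0 and 3 reads in control and 21, 12 and 17 reads in senescent replicates. Tnf, the cytokine that itself activates NF-κB, had 5, 4 and 6 reads in control and 18, 14 and 10 reads in senescent replicates. For the adhesion molecule Sele the reads were 2, 13 and 1 in control and 23, 26 and 29 in senescent replicates, and for the iron-binding protein Lcn2 they were 4, 0 and 1 against 20, 14 and 10. In these 5 genes every senescent library lay above every control library. Groups without overlap, in either direction, were found for 57.4% of all genes tested. The share among genes below the filter was not computed. The groups of Ccl20 overlapped, with 8, 5 and 15 reads against 17, 13 and 4. Tnip3, a partner of the Tnfaip3 product and the only listed regulator in the table below the filter, had 6, 4 and 3 reads in control and 12, 22 and 24 reads in senescent replicates.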
